A study of Mus musculus with 6 samples.

Results

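The clustered replication histone genes of the mouse were followed in ovary, from the linker histone genes H1f1 to H1f5 to the numbered genes of the core histone families H2ac, H2bc, H3c and H4c. Membership was set by gene symbol among the protein-coding rows of the expression table, which gave 63 of 47205 genes. They comprised 5 H1, 17 H2A, 17 H2B, 12 H3 and 12 H4 genes. The set was taken up because H1f2 had stood out between the groups of these same libraries, at 19.5 ± 1.34 FPKM in wild type and 37.6 ± 4.72 FPKM in the knockout (SD, n = 3 each). Differences between the groups are therefore given as a description, and no member is offered as a test result. FPKM counts fragments relative to the length of the gene and a size assigned to the library.

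The libraries were made from total RNA of ovaries at 9 days post partum (dpp). Of the 6 libraries, 3 came from wild-type (WT) mice, labelled ctl, and 3 from mice with SRSF1 removed in granulosa cells (cKO), the cells that surround and feed the oocyte. The sources used here do not name the promoter that drives the deletion, the strain, or any allele shared with the controls. No label states whether a library is a separate animal or a pool, so the spread between libraries may be technical in part. The ovary mixes granulosa cells, where the deletion was aimed, with oocytes, stroma and other cells. How far Srsf1 was lost in each cell type was not measured here. In such bulk samples fewer cells of a type and less RNA per cell cannot be told apart.

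Core histones H2A, H2B, H3 and H4 form the spool around which DNA is wound, and H1 linker histones bind where the DNA enters and leaves it. The clustered genes are switched on during DNA replication, are made of a single exon in their classic form, and give mRNAs that end in a stem-loop in place of a poly(A) tail. The stem-loop binding protein SLBP holds that structure and guides cleavage by the U7 small nuclear ribonucleoprotein. Some clustered genes, H1 genes among them, can also be read past the stem-loop and end in a poly(A) tail, which is better known from cells that have left the cell cycle. Replacement histones such as H3.3 and H1.0 come from scattered genes with ordinary polyadenylated mRNAs and are made outside replication.

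The stem-loop is the feature that the family shares beyond its name. Its 16-base consensus, with any base allowed at 3 variable positions and searched on the transcript strand only, lay in the GENCODE M21 transcripts (GRCm38) of 38 of the 63 members, against 9 of 55387 other genes (0.0162%). By type it was present in 3 of 5 H1, 10 of 17 H2A, 9 of 17 H2B, 8 of 12 H3 and 8 of 12 H4 genes. Many of the other models stop at the coding sequence, and a missing match says only that these letters are not in the model. H2bc4 and H2bc21, the highest H2B genes, had 0 matches in models of 1156 and 2620 bases. The lines below show the element of a few members that carry it, from each type, as DNA letters from 5′ to 3′. The stem-loop is in capitals and the flanking bases are in lower case.
H1f2: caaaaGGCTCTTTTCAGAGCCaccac
H2ac18: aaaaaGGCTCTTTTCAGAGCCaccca
H2bc8: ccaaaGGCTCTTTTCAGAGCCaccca
H3c14: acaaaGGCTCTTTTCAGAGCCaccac
H4c9: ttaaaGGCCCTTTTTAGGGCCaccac
H4c14: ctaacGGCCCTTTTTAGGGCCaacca
H1f2, H2ac18, H2bc8 and H3c14 carried the same 16 bases, and the H4 genes H4c9 and H4c14 carried another version. In the GENCODE model of H1f2, 840 bases followed the stem-loop, against 35 in H2ac18, 330 in H4c9 and 1257 in H4c14. The table's own H1f2 gene is 725 bases long, against 1560 bases for the GENCODE transcript.

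Promoter windows of 300 bases, from 250 before to 50 after the start, were taken from RefSeq (GRCm38.p6) for 58 of the 63 members. H2bc4, H2bc21, H4c14, H3c1 and H3c7 had no entry. The lines below give H1f2, the most abundant member, beside H1f4, a barely detected gene of the same type, and H2ac18, whose groups also lay apart. They run 5′ to 3′ on the strand of the gene (plus for H1f2 and H2ac18, minus for H1f4), and capitals mark exact matches, on either strand, to CCAAT, to TATAAA, to the H1 gene element AAACACA and to the octamer ATTTGCAT.
H1f2, chr13:23738557-23738856: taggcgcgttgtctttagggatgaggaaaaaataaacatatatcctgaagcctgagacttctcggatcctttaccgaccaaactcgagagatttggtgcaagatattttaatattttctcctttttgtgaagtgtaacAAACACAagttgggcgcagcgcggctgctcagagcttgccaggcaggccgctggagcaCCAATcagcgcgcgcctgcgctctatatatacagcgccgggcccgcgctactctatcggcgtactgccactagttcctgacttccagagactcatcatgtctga
H1f4, chr13:23622509-23622808: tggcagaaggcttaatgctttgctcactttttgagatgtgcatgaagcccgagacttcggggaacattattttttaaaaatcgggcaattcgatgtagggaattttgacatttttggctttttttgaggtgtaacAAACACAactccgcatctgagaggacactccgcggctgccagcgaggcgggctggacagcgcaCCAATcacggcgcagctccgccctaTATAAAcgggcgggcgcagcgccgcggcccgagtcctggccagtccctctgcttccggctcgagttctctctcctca
H2ac18, chr3:96245247-96245546: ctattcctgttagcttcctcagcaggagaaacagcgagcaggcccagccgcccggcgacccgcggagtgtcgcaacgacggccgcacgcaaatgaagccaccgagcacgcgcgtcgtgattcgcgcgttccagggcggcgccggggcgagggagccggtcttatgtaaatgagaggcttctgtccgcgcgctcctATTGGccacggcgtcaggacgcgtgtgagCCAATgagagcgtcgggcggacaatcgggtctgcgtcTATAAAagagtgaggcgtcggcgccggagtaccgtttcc
In H1f2 the AAACACA match began 112 bases before the start and the CCAAT match 54 bases before it. In H1f4 these matches began 115 and 52 bases before the start, followed by TATAAA at 27. The level of H1f4 was at most 0.415 FPKM in any library. H1f2 had no exact TATAAA match, but its window holds the run tatatata between CCAAT and the start, which the search did not count. Whether these letters bear on the levels was not tested. CCAAT was present in 50 of 58 member windows (86.2%, against 41.1% of 27025 genes), in all 47 H1, H2A, H2B and H3 windows and in 3 of 11 H4 windows. TATAAA was present in 34 (58.6%, against 15.7%), counted anywhere in the window. In H2ac18 it began after the annotated start, at base 12. AAACACA was in 4 of 5 H1 windows and in 8 of 58 over the set (8.22% of all genes), and ATTTGCAT in 7 of 15 H2B and 6 of 17 H2A windows but in 0 H1, H3 or H4 windows (1.97% of all genes). A match is a run of letters and was not measured as a binding site.

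The libraries held 16840923 to 18721895 reads, recovered from the FPKM values, and members took 944 to 1443 reads of each. Srsf1 measured 45.3 ± 4.96 FPKM in the WT libraries against 22.9 ± 3.52 in the cKO libraries. Among 12 granulosa markers the summed level was 987 to 1048 FPKM in WT and 836 to 931 in cKO, and 12 oocyte markers summed to 2571 to 2838 FPKM over all libraries, so both cell types of the follicle were present. No marker of either list was at 0 throughout.

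Most members were barely detected. H1f2 was the highest in the set, with a mean of 28.6 FPKM over the 6 libraries, followed by H4c9 at 9.32, H2bc4 at 4.74, H2bc21 at 4.44 and H4c12 at 3.40 FPKM. The median member stood at 0.325 FPKM, and 20 of 63 reached a mean of 0.5. Only 12 passed the filter of a mean of 1 FPKM over the 6 libraries that was used for the fit across the whole table, 1 of H1, 2 of H2A, 4 of H2B, 2 of H3 and 3 of H4. The nearest gene inside this line was H2bc8 at 1.03 FPKM, and the nearest outside were H4c8 at 0.851 and H2bc11 at 0.777 FPKM. H3c14 and H2bc8 passed through their cKO values, with WT means of 0.870 and 0.961 FPKM. The other 51 members held 0 to 64 reads each over all libraries. The H2A gene H2ac20 and the H2B gene H2bc1 had 0 reads, which at 3 reads as the limit of a zero count allows up to 0.372 and 0.403 FPKM in WT replicate 1, the shallowest library. Such limits and the read numbers below cover counting error only.

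The members lie in 2 clusters (GRCm39). On chromosome 13 there were 53, between 21899881 and 24118896, and on chromosome 3 there were 10, between 96127201 and 96177508. The small cluster held 7 of the 12 tested genes and a median level of 1.75 FPKM per member, against 0.243 FPKM in the large one.

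H1f2 encodes the linker histone H1.2 (chromosome 13, 23922790 to 23923514, plus strand). Its level was 18.1, 19.7 and 20.8 FPKM in WT replicates 1, 2 and 3, and 40.0, 32.2 and 40.7 FPKM in cKO replicates 1, 2 and 3. These values rest on 226, 260 and 278 reads in WT and 548, 448 and 541 reads in cKO. Every cKO library lay above every WT library, with a wide gap, and cKO replicate 2 was the lowest of its group. The log2 fold change, cKO minus WT on the scale of log2(FPKM + 1), was 0.91 (SE 0.115), a ratio of means of 1.93. It was 0.85 to 1.01 with any single library left out.

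None of the other H1 genes approached this level. H1f3 (H1.3) ranged from 0.524 to 0.976 FPKM in WT and from 0.632 to 0.805 in cKO. H1f1 (H1.1) ranged from 0.0779 to 1.11 in WT and 0.0699 to 0.732 in cKO, and H1f5 (H1.5) from 0.273 to 0.585 and 0.197 to 0.755 FPKM. H1f4 (H1.4) had a mean of 0.127 FPKM. The groups overlapped in each of these 4 genes, and their sum was 1.93 ± 0.662 FPKM in WT and 1.70 ± 0.665 FPKM in cKO. Within 50 kb of H1f2 lay 10 other members, of which 9 were below the filter, with WT means of at most 0.565 FPKM. The exception, H2bc4, is described with the H2B genes.

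H2ac18 (chromosome 3, 96152813 to 96153368, plus strand) and H2ac19 (96147095 to 96147690, minus strand) are near copies of each other on opposite strands. H2ac18 measured 1.04, 1.19 and 1.85 FPKM in the WT libraries against 3.71, 3.28 and 4.51 FPKM in the cKO libraries, on 10 to 19 and 35 to 46 reads. The groups did not overlap (log2 fold change 1.04, SE 0.174, ratio of means 2.82). H2ac19 measured 0.974, 1.85 and 2.27 FPKM in the WT libraries against 2.13, 1.75 and 2.38 in the cKO libraries, and its groups overlapped (log2 fold change 0.22, SE 0.211). The whole 528-base GENCODE transcript of H2ac19 is contained in that of H2ac18, and their promoter windows share an identical stretch of 219 bases. Reads from the common part fit both places, so the split between the copies is uncertain. Summed, the pair measured 2.02, 3.03 and 4.12 FPKM in the WT libraries against 5.84, 5.02 and 6.89 in the cKO libraries, without overlap. Of the remaining 15 H2A genes none reached the filter. The highest by level, H2ac8 and H2ac1, had means of 0.640 and 0.699 FPKM in WT and 0.729 and 0.662 in cKO, with overlapping groups.

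The highest H2B genes have long models in the table, 2303 bases for H2bc4 and 2667 for H2bc21. H2bc4 (chromosome 13, 23868182 to 23876805) measured 4.66, 4.54 and 4.58 FPKM in the WT libraries against 5.19, 4.18 and 5.30 in the cKO libraries, on 185 to 226 reads (log2 fold change 0.07, SE 0.112). H2bc21 (chromosome 3, 96128388 to 96131054) measured 4.29, 6.37 and 3.82 FPKM in the WT libraries against 4.12, 3.57 and 4.45 in the cKO libraries (log2 fold change -0.19, SE 0.177). Both overlapped between the groups, and each held more reads than any other member except H1f2. H2bc18 was uneven within both groups, from 2.09 to 4.005 FPKM in WT and from 0.739 to 3.86 in cKO (log2 fold change -0.23, SE 0.39). Its sign turned to 0.21 without cKO replicate 2, its lowest library. H2bc8 ranged from 0.933 to 1.001 FPKM in WT and from 0.470 to 1.91 in cKO (log2 fold change 0.04, SE 0.256), on 4 to 17 reads.

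Of the H3 genes, 2 were tested. H3c13 (chromosome 3, 96175970 to 96176471) stood at 1.74, 1.75 and 2.05 FPKM in WT. In cKO it stood at 3.05, 0.518 and 0.543 FPKM, on 29, 5 and 5 reads, so that cKO replicate 1 lay above all of WT and the other cKO libraries below. The log2 fold change was -0.42 (SE 0.377) and became -0.89 without cKO replicate 1, -0.18 without cKO replicate 2 and -0.20 without cKO replicate 3. H3c14 measured 1.05, 0.828 and 0.734 FPKM in the WT libraries against 2.15, 1.18 and 0.821 in the cKO libraries (log2 fold change 0.31, SE 0.228). H3c15, which shares a stretch of 666 bases with it and was below the filter, ranged from 0.250 to 0.805 FPKM in WT and from 0.481 to 1.34 in cKO. H3c8 had means of 0.536 and 0.607 FPKM. No H3 gene had groups apart.

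Among the H4 genes, which encode the partner of H3 in the nucleosome core, 3 were tested and they did not share a direction. H4c14 (chromosome 3, 96170250 to 96170633, minus strand) measured 3.33, 4.297 and 2.54 FPKM in the WT libraries against 1.38, 0.813 and 1.42 in the cKO libraries, on 18 to 30 and 6 to 10 reads. Every cKO library lay below every WT library (log2 fold change -0.99, SE 0.198, ratio of means 0.355). H4c12 (chromosome 13, 21934315 to 21934723, minus strand) measured 3.55, 2.69 and 1.46 FPKM in the WT libraries against 4.40, 4.07 and 4.26 in the cKO libraries, again without overlap but the other way (log2 fold change 0.60, SE 0.221). Its gap was narrow, and without WT replicate 3, its lowest library, the value was 0.36. H4c9 (chromosome 13, 22225130 to 22225532, minus strand), the highest H4 gene, measured 9.22, 11.3 and 4.297 FPKM in the WT libraries against 11.2, 8.27 and 11.6 in the cKO libraries (log2 fold change 0.36, SE 0.309). That value was 0.00 without WT replicate 3, and the groups overlapped. H4c8, just under the filter, measured 0.801, 0.379 and 0.498 FPKM in the WT libraries against 1.34, 0.838 and 1.25 in the cKO libraries, without overlap, on 3 to 11 reads.

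**Figure D1:**
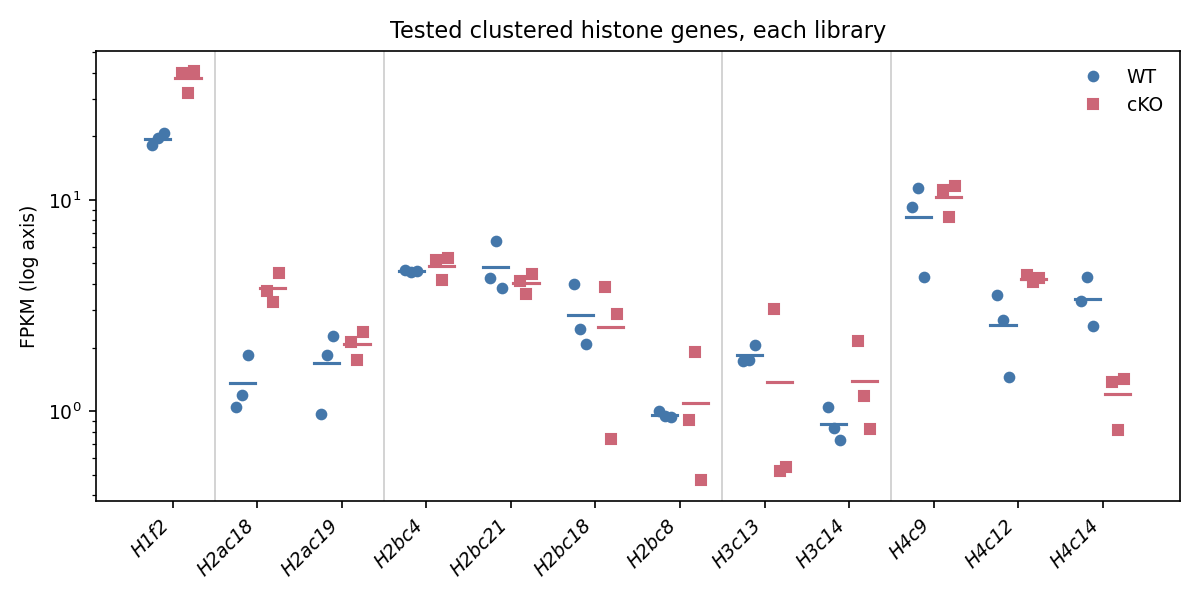
FPKM on a log axis of the 12 members that passed the filter, grouped by histone type. Circles are the 3 WT libraries, squares the 3 cKO libraries, and short lines the group means. H1f2, H2ac18 and H4c12 have all cKO points above all WT points, and H4c14 has them below.

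The tested members held values of both signs. Of the 12 tested, 8 had a log2 fold change above 0 and 4 below, beside 7352 above and 7362 below over all 14714 genes tested. The 8 include H1f2, which led to the choice of the set. They also include H2bc8 and H3c14, which passed the filter through their cKO values. Without H1f2 there were 7 above and 4 below, and nothing is read from this count. The median of the 12 tested members was 0.14 (0.07 without H1f2) beside -0.00 over all genes. A log2 fold change of at least 0.5 was found in 3 members (3.54% of all genes tested) and one of -0.5 or below in 1 (2.11%). The groups lay apart upward in 3 members (6.37% of all genes tested) and downward in 1 (5.89%). By limma, 0 members passed an adjusted p of 0.05 in either direction, where 0.00680% of all genes passed upward and 0.0136% downward, and limma-voom on the recovered reads also called 0. At an unadjusted limma p under 0.05 there were 3 members higher (3.64% of all genes) and 1 lower (2.70%). Since this contrast led to the choice of the set, these shares are a description. The 5 tested members on chromosome 13 all had values above 0, while on chromosome 3 there were 3 above and 4 below. Those 5 include H1f2, and H2bc4 and H2bc8 lay within their SE of 0 (0.07, SE 0.112, and 0.04, SE 0.256). H4c9, also among them, was 0.00 without WT replicate 3. The shares over all genes of each chromosome were not computed, and nothing is read from this split. The median log2 fold change was 0.91 for H1 (H1f2 alone), 0.63 for H2A, -0.07 for H2B, -0.06 for H3 and 0.36 for H4.

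**Figure D2:**
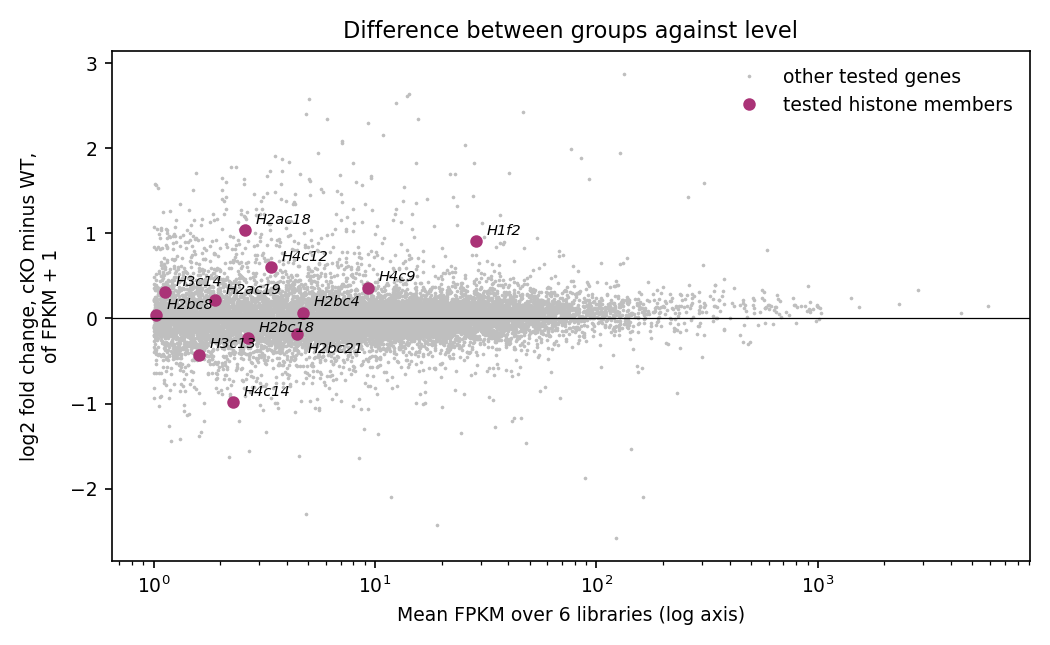
Log2 fold change (cKO minus WT, of FPKM + 1) against mean FPKM over the 6 libraries on a log axis, for each tested gene. The 12 members are in purple and labelled. H1f2 and H2ac18 lie near 1, H4c14 near -1 and most others within the grey band of the other genes.

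Summed over all 63 members, the level was 66.8, 70.7 and 61.0 FPKM in WT and 97.5, 77.5 and 94.9 FPKM in cKO. Without H1f2 it was 48.7, 50.9 and 40.3 in WT and 57.5, 45.3 and 54.2 in cKO, and the groups overlapped. H1f2 alone made up 27.1%, 27.9% and 34.0% of the summed FPKM in WT and 41.0%, 41.5% and 42.9% in cKO. The ratio of mean sums was 1.36 with H1f2 and 1.12 without it. H2A summed to 6.38 ± 1.57 FPKM in WT and 9.39 ± 1.25 in cKO, with the lowest cKO library, 8.11, just under the highest WT library, 8.19. H2B (15.7 ± 1.63 and 15.4 ± 1.64), H3 (5.85 ± 0.0962 and 6.27 ± 2.33) and H4 (16.8 ± 5.62 and 19.6 ± 1.48) overlapped as well. The libraries did not keep a fixed order, but cKO replicate 3 was the highest of the 6 in 5 of the 12 tested members and cKO replicate 2 the lowest in 5. The 51 members under the filter summed to 12.7 to 13.9 FPKM in WT and 15.05 to 15.54 FPKM in cKO, a narrow gap spread over genes with few reads each. Of the 49 with at least 1 read, the groups lay apart upward in H2bc22, H2bc14, H2bc13 and H4c8 and downward in H4c18, on 4 to 41 reads each over all libraries. Over all 17979 genes with a read below the filter, the groups lay apart upward in 3.55% and downward in 4.46%. H2bc14 and H2bc13 rest on 5 and 4 reads, with 0 in WT, and nothing is read from these counts. Apart from H4c8, these were named after their values were seen.

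**Figure D3:**
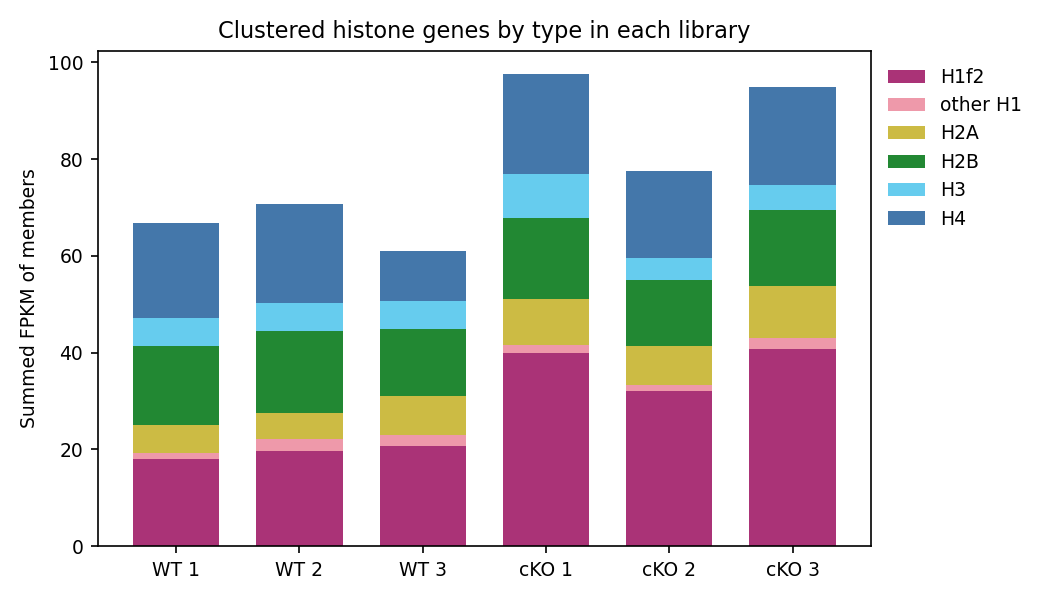
Summed FPKM of the 63 members in each library, as stacked bars from 0, with H1f2 apart from the other H1 genes. The H1f2 block is 18.1 to 20.8 FPKM in WT and 32.2 to 40.7 FPKM in cKO, and the H2B and H3 blocks overlap between the groups.

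How much sequence members share bears on every value above, since the sources used here do not say how the counter treated reads with several matches. Each GENCODE M21 transcript was broken into all windows of 100 bases, and a window was called shared if the same letters, on either strand, lay in a transcript of another gene. The median member shared 40.1% of its windows, 28 of 63 shared over 50%, and 5 shared 0. H1f2 shared 5.07% of windows of 100 bases and 0% of windows of 150, with H1f3 and H1f4 as partners. H4c14 shared 0% and H2bc21 0%, while H4c9 shared 15.1%, H2bc4 25.4%, H2bc8 44.9% and H4c12 64.3%. H2ac18, H2ac19, H2bc18, H3c13 and H3c14 shared 100%. All windows of H2ac19 lie in H2ac18, and for H2ac18, H2bc18 and H3c13 the partners include transcripts annotated on the opposite strand at the same place. H2bc18 had only partners that overlap it at the same place. For H3c14 the 100% came from Gm20634, which overlaps it on the same strand, and its largest partner elsewhere, H3c15, held 32.9%. Gm20634 also overlaps H2ac18 on the same strand. Sharing with a transcript at the same place is an overlap of annotations and need not mean a second copy elsewhere. H3c13 also had partners elsewhere, with 77.1% of its windows in H3c15 and 77.1% in Gm20634. Nothing in the sources used here states whether counting used strand. Of the 4 tested members with groups apart, H1f2 and H4c14 thus shared little or nothing over their GENCODE transcripts, and H2ac18 and H4c12 shared most of theirs. The table's gene models can be shorter than these transcripts, as for H1f2, and the share within the counted bases alone was not computed. The sources used here name no read length, and with windows of 50 bases the median share was 57.0%.

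**Figure D4:**
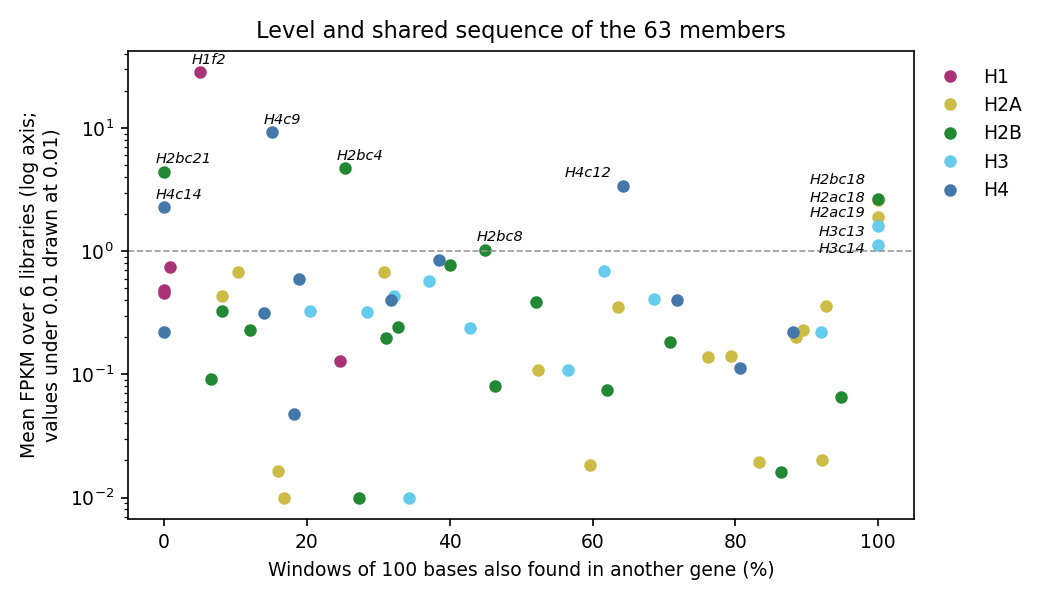
Mean FPKM over the 6 libraries (log axis) against the percentage of windows of 100 bases that also occur in another gene, 1 point per member, coloured by type. Tested members are named and the dashed line is the filter at 1 FPKM. H1f2 sits at 5.07% and 28.6 FPKM, and 5 tested members sit at 100%, some of them through transcripts annotated at the same place.

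The genes that make and use histone mRNA were compared from lists of their own. Among the replacement histones, 7 of 11 tested had values above 0 and 4 below, with a median of 0.03. Their levels were far above those of the clustered genes, with H3f3a and H3f3b (both H3.3) at 395 ± 44.2 and 281 ± 32.5 FPKM in WT and 440 ± 81.4 and 302 ± 30.6 in cKO, and H2az1 (H2A.Z) at 153 ± 19.02 and 137 ± 10.3. The replacement linker histone H1f0 (H1.0) ranged from 99.2 to 112 FPKM in WT and from 88.1 to 134 in cKO, and the oocyte linker histone H1f8 from 125 to 152 and 98.0 to 142. These 2 linker genes are named beside H1f2 after their values were seen. H1f0 and H1f8 overlapped between the groups, unlike H1f2. H2ax is listed at 0 in every library. A 0 may come from how reads were assigned to genes, which is unstated, and absence of its RNA is not read from it.

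Of 15 genes for transcription and processing of histone mRNA, 5 had values above 0 and 10 below (median -0.08). Slbp, the stem-loop binding protein, measured 67.9 ± 3.38 FPKM in the WT libraries against 62.1 ± 6.48 in the cKO libraries, and Cpsf3, the nuclease of 3′ end cleavage, measured 23.3 ± 0.690 and 25.0 ± 1.04. Of 16 histone chaperones 7 were above 0 and 9 below (median -0.02), with Rbbp7 at 140 ± 12.7 and 138 ± 8.71 FPKM. DNA replication genes, which are on when clustered histone genes are, had 4 of 24 above 0 and 20 below (median -0.05). The sliding clamp Pcna measured 89.5 ± 2.07 FPKM in the WT libraries against 89.0 ± 1.03 in the cKO libraries, and the helicase subunit Mcm6 measured 44.1 ± 4.296 and 40.9 ± 4.99. Mitosis genes had 1 of 16 above 0 and 15 below (median -0.15), with Ccnb1 at 46.7 ± 3.88 and 41.8 ± 0.584. By limma, 0 genes of these 5 lists passed the adjusted threshold. At an unadjusted limma p under 0.05 there were 0 higher and 4 lower among their 82 tested genes. Over all genes tested, 3.64% were higher and 2.70% lower at that line, and nothing is read from so few.

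A short list of nuclear and cytoplasmic RNAs without a poly(A) tail had low values in every library. The 9 genes of that list, among them Rn7sk and the RNase P RNA gene Rpph1, summed to 0.985 to 1.49 FPKM in WT and 0.533 to 2.24 in cKO, with 3 of 9 at 0 throughout. Other RNAs without a tail were not listed, and low values may also come from how reads were assigned to genes, which is unstated. The sources used here do not state how RNA was selected for these libraries, and histone mRNAs that lack a tail would be missed by selection on it. How RNA was selected is not read from these 9 genes.

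Markers of other ovarian cells were read beside the values of H1f2. Leukocyte markers had 13 of 13 tested values above 0 (median 1.29), and the 14 together summed to 59.2, 48.3 and 65.2 FPKM in WT and, in the order of their numbers, 423, 94.0 and 208 in the cKO libraries. None was at 0 throughout. Surface epithelium markers had 10 of 10 above 0 (median 0.66), with sums of 299 to 354 FPKM in WT and 374 to 508 in cKO. Endothelial markers had 8 of 8 above 0 (median 0.20), and granulosa markers 2 of 11 (median -0.44). Erythroid sums ran from 183 to 336 FPKM in WT and from 158 to 574 in cKO, and overlapped, as did stromal sums. The parts of these cells in the H1f2, H2ac18, H4c12 and H4c14 values were not tested. In cKO replicates 1, 2 and 3, H1f2 measured 40.0, 32.2 and 40.7 FPKM beside the leukocyte sums above. Both H1f2 and the leukocyte sum lay higher in every cKO library than in every WT library. Within cKO both were lowest in replicate 2, with a ratio of replicate 1 to 2 of 4.50 for the leukocyte sum and 1.24 for H1f2. The surface epithelium and endothelial sums also lay higher in every cKO library than in every WT library, but in other orders. In cKO replicates 1, 2 and 3 the surface epithelium sums were 374, 508 and 482 FPKM. The endothelial sums there were 192.9, 192.6 and 180.8 FPKM, against 158 to 167 in WT. Whether H1f2 is related to any of these sums was not tested.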

How the data were processed

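RNA-seq of mouse ovary at 9 dpp was analysed, with 3 WT and 3 cKO libraries. The authors deposited 1 table of FPKM per gene with GRCm39 coordinates. HISAT2 2.0.5 and the builds mm10 and GRCm39 are named per the submitters' processing notes. The counter, its use of strand and of reads with several matches, and the selection of RNA are unstated in the sources used here. FPKM times gene length gave whole reads for 100% of values (within 0.01), and 1 read in a gene of 1 kb is worth 0.0520 to 0.0581 FPKM. The library size behind the FPKM lay above the recovered reads in WT replicate 1 and cKO replicates 1 and 2. It lay below them in the other libraries, so it was not their plain total, and how it was set is unstated.

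Genes whose mean level reached 1 FPKM (14714 of 47205) were fitted on log2(FPKM + 1) with limma 3.58.1 in R 4.3.3, with a mean-variance trend and Benjamini-Hochberg adjustment at 0.05. A fold change on this scale understates the change of low genes. Other pseudocounts, filters, scalings, priors, weights, a replicate block, leaving out each library and, chosen after seeing the data, limma-voom on the recovered reads were tried. The fit was tested on simulated data.

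The members and gene lists were chosen with earlier results of these data known. Named by rule were, per histone type, up to 4 members of highest mean and up to 3 tested members of smallest unadjusted p, and, per other list, up to 3 genes of highest mean. Any other name was chosen after its values were seen. For 1 of 16 listed genes of histone mRNA processing no row carried the symbol. Sequences came from RefSeq (GRCm38.p6) and GENCODE M21 (GRCm38), and no coordinate was moved between builds.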

Additional observations from a re-analysis of the deposited data

How the results depend on the processing

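With 3 libraries a group, only H1f2, H2bc4, H2bc21 and H4c9 among the members rest on more than 200 reads in all. The log2 fold change of H1f2 stayed between 0.84 and 1.01 over the alternatives, that of H2ac18 between 0.94 and 1.48, and that of H4c14 between -1.45 and -0.84. Of 248 alternative values for single genes, 240 kept their direction and their side of the threshold. H2bc8 turned to -0.015 with a pseudocount of 0.1, -0.0020 with quantile scaling, -0.052 with library weights and -0.017 with limma-voom. With library weights H2bc18 was 0.14 and H3c13 0.13. H2bc18 ran from -0.54 to 0.21 with a library left out. The causes were not tested.

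Over the whole table, limma called 1 gene higher and 2 lower. The count higher was 0 with a pseudocount of 0.1 or 0.5, a filter of 5 FPKM, no filter, quantile scaling, protein-coding genes alone and limma-voom, and 3 with library weights. The count lower was 0 with no filter and with limma-voom, and 1 with protein-coding genes alone. Both ranged from 0 to 1 with a library left out. Among members the count higher was 1 with library weights, for H1f2 (limma adjusted p = 0.0385, log2 fold change 0.98). In the main fit the limma adjusted p of H1f2 was 0.252, and over the alternatives it ran from 0.0385 to 0.897. H1f2 led to the choice of the set, so none of these values is offered as a test result. Members apart upward were 5 with a filter of 0.1 FPKM, 1 with a filter of 5 and 7 with none, and 3 to 4 with a library left out. Members apart downward were 2, 0 and 2 in those settings and 1 to 2 with a library left out. Those filters tested 50, 2 and 61 members, and over all genes they kept, the groups lay apart upward in 6.0%, 6.28% and 4.82% and downward in 5.85%, 5.07% and 5.10%. Nothing is read from these counts, since this contrast led to the choice of the set.

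The median log2 fold change of H1 was -0.057 with a filter of 0.1 or none, where more H1 genes were tested, and 0.85 to 1.01 with a library left out. For H2A it was 0.90 with a pseudocount of 0.1, 0.91 with limma-voom, 0.043 with a filter of 0.1 and 0.048 with none, and 0.48 to 0.78 with a library left out. With a library left out it was -0.14 to 0.16 for H2B, -0.89 to 0.15 for H3, 0.0026 to 0.61 for H4 and 0.048 to 0.30 for all members, the last being 0.63 with a filter of 5.

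The replicate numbers gave no sign of pairing, since same-numbered libraries had correlations of 0.18, -0.08 and -0.06. With the replicate block 0 genes were called higher and 0 lower, and the log2 fold change of H1f2 was 0.91.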
